A study of Mus musculus with 16 samples.

Results

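The C-type lectin genes with Clec symbols were followed across 16 arrays of mouse dendritic cells. Members were the genes whose platform symbol reads Clec followed by a number, each read from a probe set that carried no other symbol, and 31 of the 22180 genes tested met that rule. One further probe set, shared by Clec9a and Clec1b, carried both symbols and was left out, so Clec9a, the dead-cell receptor of cross-presenting dendritic cells, was not analysed here. All groups share a culture of 10 days in medium with GM-CSF (20 ng/ml), started from the marrow of male mice labelled C57/B6. They were then treated for 24 h in 4 groups of 4 arrays, which were mock, PA (0.5 mM, bound to serum albumin, BSA, at a molar ratio of 6), IMQ, and IMQ with PA. From knowledge of the study, the abbreviations stand for palmitic acid, a saturated fatty acid, and imiquimod, which activates the endosomal receptor TLR7. The labels give the dose of IMQ as 3 uM in the design text and 3 ug/ml in the protocol, and do not say whether mock cells received albumin. The replicates are called biological in the labels without naming animals or cultures, so the p-values rest on the spread among these arrays, which may be technical.

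C-type lectin receptors are surface proteins that bind sugars, lipids or protein ligands through a shared fold, the C-type lectin-like domain. In myeloid cells, activating members signal through the kinase Syk and the adaptor Card9, either by a tyrosine motif of their own or through the partner chains FcR gamma (Fcer1g) and DAP12 (Tyrobp), while inhibitory members carry a motif that recruits the phosphatases SHP-1 (Ptpn6) and SHP-2 (Ptpn11). Dendritic cells and macrophages use them to recognise fungi, mycobacteria and dying cells. Others in the family serve as ligands of receptors on natural killer cells, or are secreted proteins of cartilage, bone and plasma.

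Of the 31 genes, 23 lie on mouse chromosome 6 in the RefSeq annotation. A run of 9 neighbouring protein-coding genes there holds only members, in the order Clec4a1, Clec4a3, Clec4a4, Clec4b1, Clec4a2, Clec4b2, Clec4n, Clec4d and Clec4e. A second run, Clec12a, Clec12b, Clec1b, Clec9a, Clec1a and Clec7a, holds 5 members among its 6 genes. The promoters of 4 genes from these runs are shown because neighbours in them had opposite changes. Clec4e had the largest rise with IMQ and Clec4b1 the largest fall, Clec7a was lowest with IMQ alone, and Clec12a was lowest with both agents. Each sequence is the 250 bases before a RefSeq transcription start (GRCm38.p6), read 5′ to 3′ on the gene's strand. Capitals mark matches, on either strand, to PU.1 (GAGGAAG), NF-kB (GGANTTTCC), the interferon-stimulated response element or ISRE (AAANNGAAA), AP-1 (TGANTCA) or C/EBP (TTGCNNAA), which are short forms of the motifs of factors active in myeloid cells. The windows are chr6:123289872-123290121 (minus strand) for Clec4e, chr6:123049712-123049961 (plus) for Clec4b1, chr6:129472780-129473029 (minus) for Clec7a and chr6:129349994-129350243 (plus) for Clec12a.
Clec4e: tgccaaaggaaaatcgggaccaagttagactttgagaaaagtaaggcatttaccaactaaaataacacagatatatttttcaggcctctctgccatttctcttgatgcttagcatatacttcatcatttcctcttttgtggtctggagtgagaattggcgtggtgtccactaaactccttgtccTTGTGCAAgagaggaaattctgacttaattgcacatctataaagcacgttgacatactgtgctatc
Clec4b1: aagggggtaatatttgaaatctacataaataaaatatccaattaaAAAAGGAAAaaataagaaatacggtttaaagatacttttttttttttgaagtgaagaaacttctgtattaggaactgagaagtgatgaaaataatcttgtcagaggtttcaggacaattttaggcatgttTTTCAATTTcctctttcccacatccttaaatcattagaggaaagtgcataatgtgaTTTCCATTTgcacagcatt
Clec7a: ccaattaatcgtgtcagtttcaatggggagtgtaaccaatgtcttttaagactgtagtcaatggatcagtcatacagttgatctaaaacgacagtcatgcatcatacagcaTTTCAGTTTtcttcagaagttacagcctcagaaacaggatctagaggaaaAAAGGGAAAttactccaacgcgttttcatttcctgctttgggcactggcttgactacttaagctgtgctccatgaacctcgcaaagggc
Clec12a: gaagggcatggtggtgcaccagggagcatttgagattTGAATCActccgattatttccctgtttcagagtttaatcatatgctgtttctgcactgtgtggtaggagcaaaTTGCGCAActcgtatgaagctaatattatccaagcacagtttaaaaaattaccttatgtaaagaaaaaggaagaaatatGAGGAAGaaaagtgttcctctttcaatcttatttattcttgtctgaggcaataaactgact

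The Clec4e window held a C/EBP match whose first base lay at position -66 from the start. The Clec4b1 window held ISRE matches at -205, -75 and -19, and the Clec7a window held them at -139 and -89. In the Clec12a window an AP-1 match lay at -213, a C/EBP match at -140 and a PU.1 match at -61. Promoters were found for 25 of the 31 genes. Over those, PU.1 was matched in 6 genes (10.6% of all 32851 promoter windows of this length), the ISRE in 6 (9.37%), AP-1 in 5 (6.75%), C/EBP in 4 (9.56%) and NF-kB in 1, Clec2l (1.07%). A match describes these letters alone.

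Before the changes, the levels were set against probe sets that should be silent. Values are log2 RMA values, and dim is used here for a gene with no group mean reaching 4.93, which is the 95th percentile over 1447 genes for smell, pheromone and taste receptors. By that limit 10 of the 31 Clec genes were dim and 21 were above it in at least 1 group, against 8622 dim genes (38.9%) among all tested. The dim genes were Clec10a, Clec12b, Clec14a, Clec2e, Clec2g, Clec2h, Clec3a, Clec4a4, Clec4b2 and Clec4g. The highest of the dim genes was Clec10a, with a highest group mean of 4.41, and just above the limit lay Clec2m (5.06) and Clec11a (5.12). With the 90th percentile of the receptor genes (4.42) as the limit, 10 Clec genes were again dim. With the 99th percentile of the same receptor genes (5.81) as the limit, 16 would be dim, adding Clec11a, Clec18a, Clec1b, Clec2m, Clec3b and Clec4f.

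**Figure D1:**
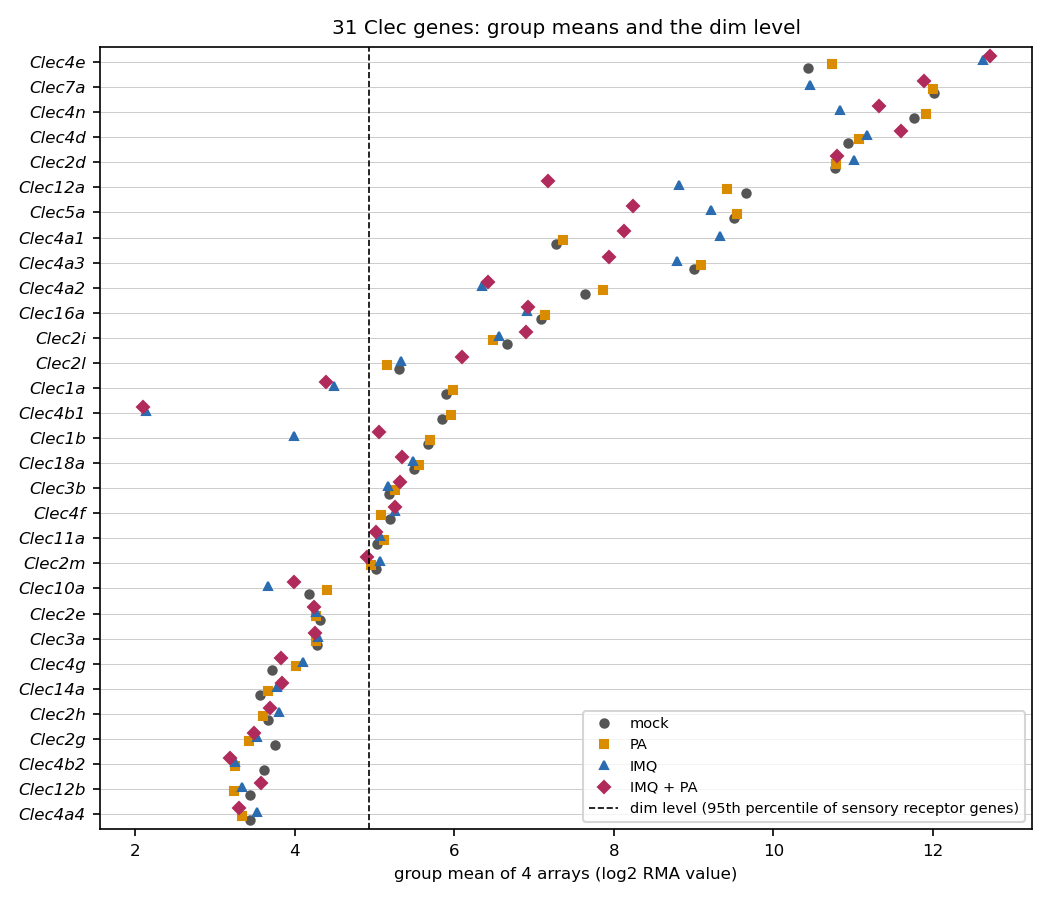
Group means (4 arrays each, log2 RMA value, horizontal axis) of the 31 Clec genes, sorted by their highest mean, with mock, PA, IMQ and IMQ with PA as different symbols. The dashed line is the dim level of 4.93, and all 4 means of 10 genes lie left of it.

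The cells carried the markers of GM-CSF cultures, which hold dendritic cells together with macrophage-like cells. Of the 13 conventional dendritic cell markers 11 were above the dim level, with Itgax (the integrin CD11c) at a mock mean of 11.1 and H2-Ab1 at 12.3, while Xcr1 and Itgae were dim. All 12 measured macrophage and monocyte markers were above it, including Csf1r (11.8 in mock) and Adgre1 (10.1). All 4 Kupffer cell markers and 8 of 9 lymphocyte markers were dim. Other lists were dim only in part, with 3 of 7 endothelial, 3 of 7 stromal and 2 of 7 plasmacytoid dendritic cell markers dim. The same held for 6 of 9 mast cell and basophil markers, 5 of 13 neutrophil markers and 0 of 5 platelet markers. Kdr of the endothelial list, for instance, had a mock mean of 8.71. Arrays of 1 group correlated at 0.994 to 0.996 across genes, and 0 pairs of arrays were identical.

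The arrays without IMQ differed in inflammatory genes within their groups. For Il6 the mock arrays (replicates 1 to 4) had levels of 7.57, 7.90, 7.71 and 4.32, and the PA arrays had levels of 4.12, 3.9985, 7.43 and 8.22. Results were therefore also computed without the 5 arrays above 6 (mock replicates 1 to 3, PA replicates 3 and 4) and without the 3 below it. In the first of these a lone mock array is taken to vary like the other groups.

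PA alone changed no Clec gene at the threshold used, which was an adjusted p under 0.05 in limma (Benjamini-Hochberg, over all 22180 genes). That is 0 of 31 genes, where 1.49% of all genes and 2.12% of those above the dim level were called. An unadjusted p under 0.05 in limma was found for 7 of the 31, and for 3210 of all 22180 genes. Above the dim level it was found for 5 of 21 Clec genes and for 2334 of all 13558 genes. The intervals of the largest differences among genes above the dim level were 0.07 to 0.53 for Clec4e (0.30 ± 0.11, SE of the fit, n = 4 arrays per group, limma adjusted p = 0.207) and -0.39 to -0.08 for Clec12a (-0.23 ± 0.07, limma adjusted p = 0.148). For Clec7a the difference was -0.02 ± 0.04, with an interval of -0.11 to 0.06. With a variance trend and robust moderation 3 genes were called, which were Clec4d (0.14, limma adjusted p = 0.000768), Clec4n (0.15, 0.00406) and Clec12a (-0.23, 0.0325). Without dim genes Clec4d alone was called (limma adjusted p = 0.0292), and without the arrays high in Il6 Clec4e alone was called (0.62, limma adjusted p = 0.0181). All intervals here are 95% intervals of the fit.

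IMQ alone changed 17 of the 31 genes, 5 higher and 12 lower, and 7 of them by at least 1 on the log2 scale. Clec4e (Mincle) and Clec4a1 rose 4.60-fold and 4.17-fold. Clec4b1, Clec1b, Clec7a (Dectin-1), Clec1a and Clec4a2 fell, with log2 changes from -3.71 to -1.29. Over all genes 34.8% were called, 17.0% higher and 17.9% lower, and 5.13% were called at that size. Of the 17, 14 were above the dim level in a group, and among all genes above it the share called was 52.1%. The median change of the 31 genes was -0.05, against 0.01 over all genes.

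PA added to IMQ changed 11 of the 31 genes relative to IMQ alone, 6 higher and 5 lower, all above the dim level, where 32.2% of all genes were called, and 4 of them by at least 1. Clec7a and Clec1b rose, and Clec12a and Clec4a1 fell, at that size. Over all genes 21.1% were called, 11.6% higher and 9.44% lower, and 1.15% at that size. IMQ with PA relative to PA alone changed 15 genes, 5 higher and 10 lower, with 7 at that size. Here 35.3% of all genes were called, 16.8% higher, 18.5% lower and 5.62% at that size. Of the 21 Clec genes above the dim level 14 were called, where 53.2% of all genes above it were called. The interaction, which is the PA change in the presence of IMQ minus the PA change in its absence, was called for 12 genes, 6 above 0 and 6 below, with 5 at that size. Over all genes the interaction was called for 13.6%, 6.58% above 0 and 7.01% below, and 1.04% at that size. Above the dim level it was called for 11 of the 21 Clec genes and for 20.5% of all genes. The IMQ and the IMQ with PA arrays each enter several of these comparisons, which are therefore not independent. In extracts of whole cultures, fewer cells of a type and less RNA per cell cannot be told apart.

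**Figure D2:**
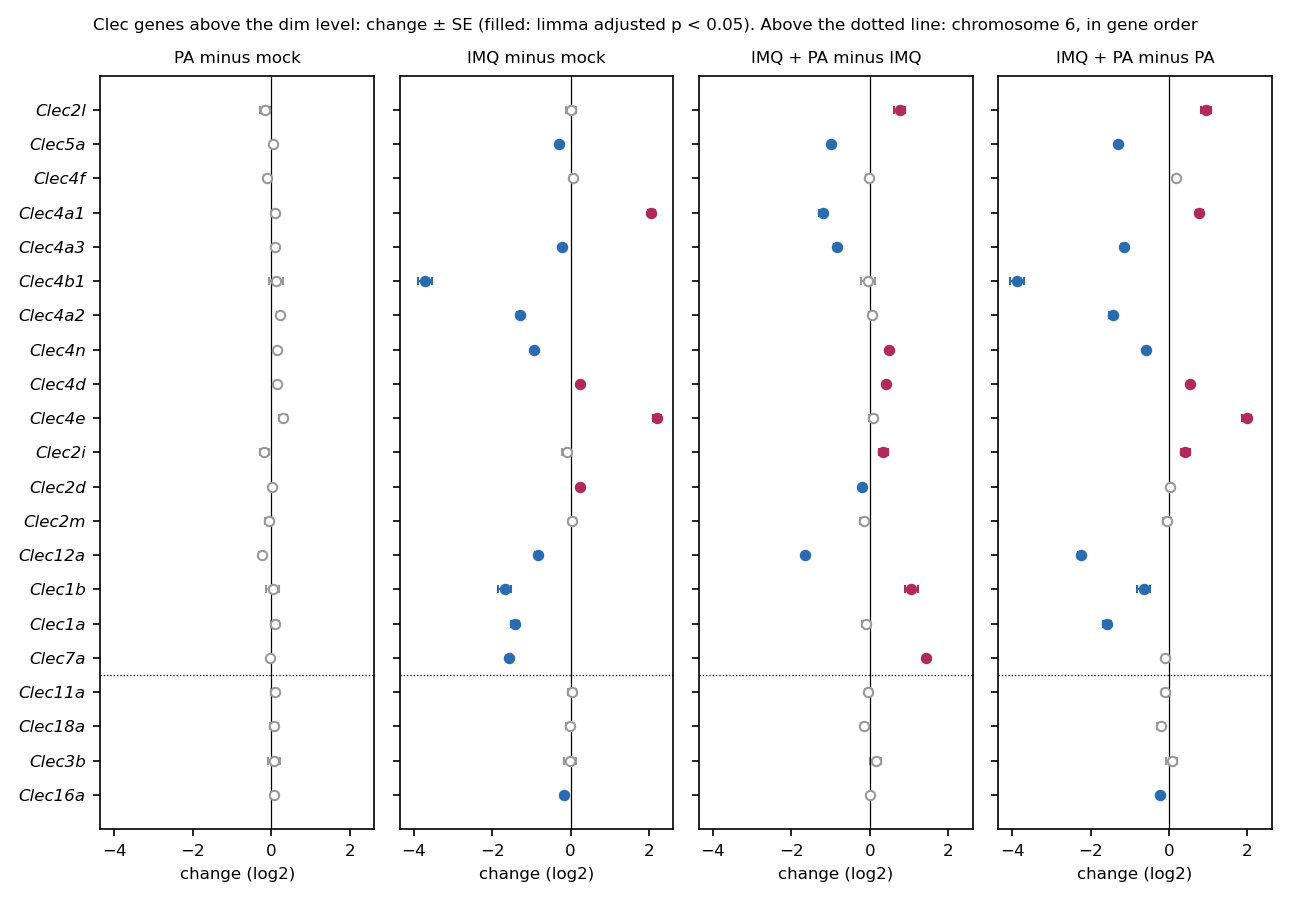
Changes (log2, horizontal axis, with the SE of the fit) of the 21 Clec genes above the dim level in 4 comparisons, with filled points for calls at a limma adjusted p under 0.05. Genes above the dotted line lie on chromosome 6 in the order shown, and the PA column holds 0 filled points.

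Among the activating receptors, Clec7a encodes Dectin-1, the receptor for beta-glucan of fungal cell walls, which signals to Syk by its own tyrosine motif. It read 12.06, 12.002, 12.004 and 12.01 on the mock arrays (replicates 1 to 4), 12.04, 11.99, 11.96 and 12.002 with PA, 10.47, 10.42, 10.50 and 10.43 with IMQ and 11.89, 11.84, 11.90 and 11.94 with IMQ and PA. The 4 IMQ arrays lay below all the others, and the arrays with both agents lay between them and the arrays without IMQ, close to the latter. The fall with IMQ was 2.96-fold (-1.56 ± 0.04, limma adjusted p = 8.41e-14) and the rise when PA was added to IMQ was 2.71-fold (1.44 ± 0.04, limma adjusted p = 1.29e-12). IMQ with PA relative to PA gave -0.10 ± 0.04 (limma adjusted p = 0.0553), a difference that was called in repeated quantile normalization (-0.21, limma adjusted p = 0.000183), with a variance trend (0.00125), without dim genes (0.02) and without IMQ with PA replicate 4 (0.0425). The interaction was 1.46 ± 0.06 (limma adjusted p = 3.31e-10).

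Clec4n encodes Dectin-2, which binds fungal mannans and signals through FcR gamma. It read 11.75, 11.71, 11.84 and 11.75 in mock, 11.89, 11.84, 11.98 and 11.96 in PA, 10.90, 10.84, 10.78 and 10.83 in IMQ and 11.35, 11.31, 11.32 and 11.31 in IMQ with PA. No value of the IMQ or the IMQ with PA arrays overlapped those of another group, and the arrays with both agents lay between IMQ and mock. IMQ lowered it by 0.92 ± 0.05 on the log2 scale (-0.92, limma adjusted p = 1.37e-10), and PA added to IMQ raised it by 0.49 ± 0.05 (limma adjusted p = 1.10e-06). Unlike Clec7a, it was called lower in IMQ with PA than in PA alone (-0.59 ± 0.05, limma adjusted p = 3.01e-08).

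The neighbours Clec4d and Clec4e encode MCL and Mincle, which pair with FcR gamma and bind the mycobacterial glycolipid trehalose dimycolate. Clec4d read 10.94, 10.94, 10.93 and 10.92 in mock, 11.06, 11.03, 11.09 and 11.10 in PA, 11.20, 11.22, 11.13 and 11.16 in IMQ and 11.61, 11.58, 11.61 and 11.59 in IMQ with PA. Its 4 groups did not overlap, and the arrays with both agents were highest. The change with IMQ was 0.25 ± 0.04 (limma adjusted p = 6.19e-05), and PA added to IMQ gave a further 0.42 ± 0.04 (limma adjusted p = 5.55e-07), with an interaction of 0.28 ± 0.05 (limma adjusted p = 0.0019). The interaction of Clec4d was not called without the arrays high in Il6 (0.30, limma adjusted p = 0.093).

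Clec4e read 10.47, 10.57, 10.67 and 10.01 in mock, 10.63, 10.64, 10.74 and 10.92 in PA, 12.64, 12.66, 12.61 and 12.61 in IMQ and 12.73, 12.69, 12.70 and 12.71 in IMQ with PA. All 8 arrays with IMQ lay above all 8 without it, and mock replicate 4, the mock array low in Il6, was the lowest. IMQ raised it by 2.20 ± 0.11 (limma adjusted p = 9.13e-11), and PA added to IMQ gave 0.08 ± 0.11 (limma adjusted p = 0.667, interval -0.15 to 0.31). All 4 arrays with both agents lay above all 4 with IMQ alone. The SE rests on a variance shared by all groups, and the SD was 0.29 in mock, 0.03 in IMQ and 0.02 in IMQ with PA. The IMQ values of this gene lie near the top of the scale, where the highest value of an array was 13.4 to 13.5, and this limit on a further rise was not tested. The rise with IMQ was 2.62 without the arrays high in Il6 and 2.06 without those low in Il6. The interaction of Clec4e, -0.22 ± 0.15 (limma adjusted p = 0.418), was called without the arrays high in Il6 (-0.54, limma adjusted p = 0.00444).

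Clec4b1 encodes DCAR, an activating receptor that also pairs with FcR gamma. It read 5.84, 5.82, 5.84 and 5.91 in mock, 6.25, 5.96, 6.01 and 5.64 in PA, 1.98, 1.85, 2.76 and 1.97 in IMQ and 2.35, 1.79, 2.07 and 2.16 in IMQ with PA. The highest array with IMQ read 2.76 and the lowest without it read 5.64. The fall with IMQ was at least 13.1-fold (-3.71 ± 0.17, limma adjusted p = 5.46e-11), a lower bound because the IMQ mean of 2.14 lay below the dim level. In the presence of PA the fitted change with IMQ was -3.87 ± 0.17 (limma adjusted p = 3.07e-11), likewise a bound, with an IMQ with PA mean of 2.09. With both means in the dim range, the falls with and without PA cannot be compared.

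Clec5a encodes MDL-1, which signals through DAP12 and is known as a receptor for flaviviruses. It read 9.41, 9.48, 9.55 and 9.57 in mock, 9.54, 9.54, 9.46 and 9.63 in PA, 9.23, 9.20, 9.27 and 9.18 in IMQ and 8.17, 8.31, 8.23 and 8.25 in IMQ with PA. The IMQ arrays lay just below the arrays without IMQ, and the arrays with both agents were lowest by a wide margin. IMQ alone gave -0.28 ± 0.05 (limma adjusted p = 0.000349), and PA added to IMQ gave -0.98 ± 0.05 (limma adjusted p = 1.31e-09), with an interaction of -1.02 ± 0.07 (limma adjusted p = 1.34e-07).

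**Figure D3:**
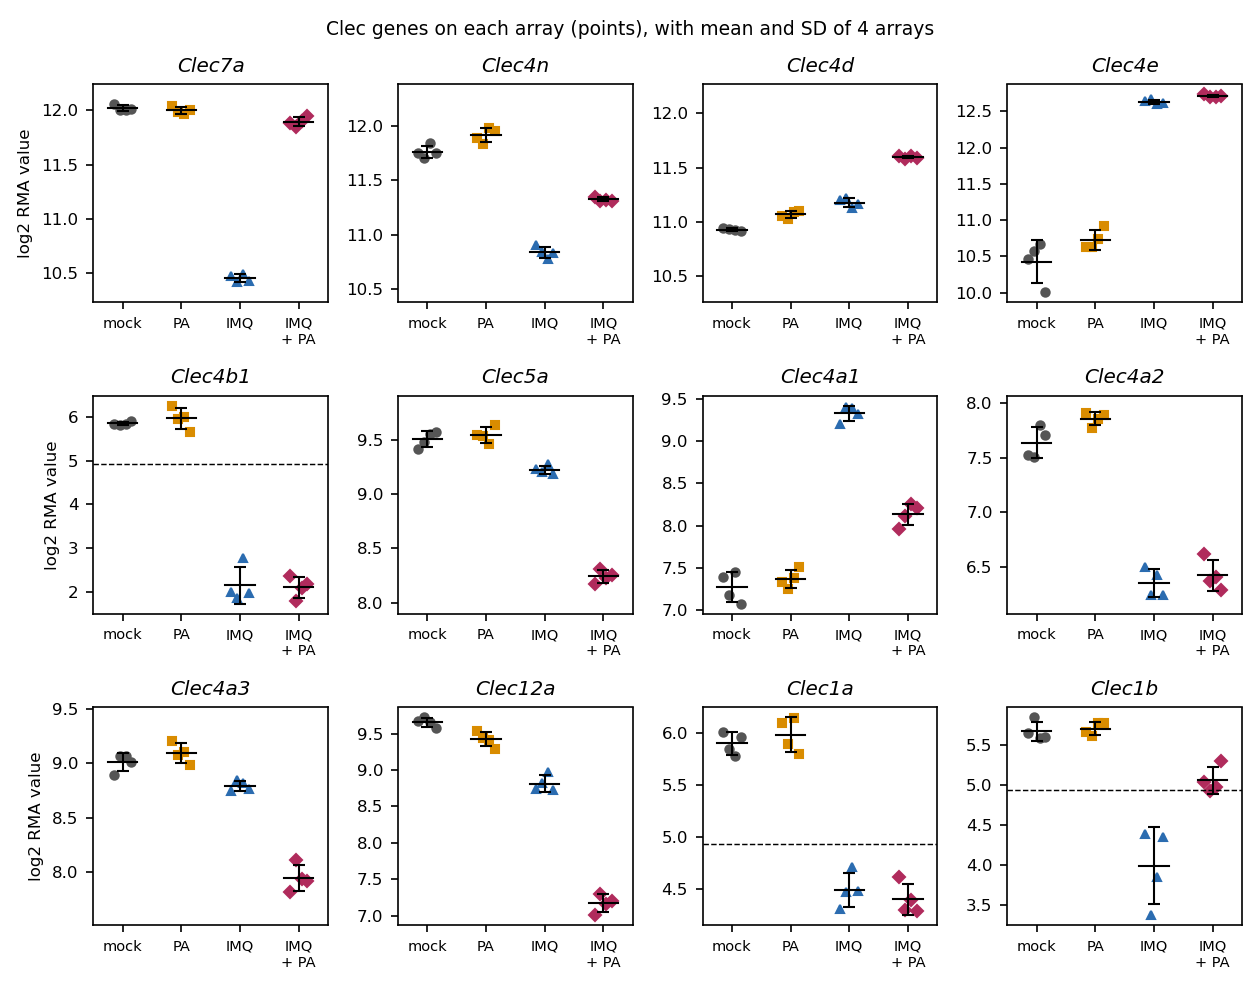
Log2 RMA values of 12 Clec genes on each of the 16 arrays (points), with the mean and SD of the 4 arrays of a group as black bars and the dim level as a dashed line where it falls in the range. Each panel has its own scale of at least 2 log2 units; Clec7a is low with IMQ alone, and Clec12a and Clec5a are lowest with both agents.

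Among the inhibitory receptors, Clec12a encodes MICL, which binds uric acid crystals and dampens responses to dead cells. It read 9.67, 9.72, 9.65 and 9.58 in mock, 9.53, 9.44, 9.42 and 9.29 in PA, 8.73, 8.83, 8.97 and 8.72 in IMQ and 7.01, 7.31, 7.17 and 7.20 in IMQ with PA. The groups were ordered mock, PA, IMQ and IMQ with PA from high to low, with no overlap. IMQ alone lowered it 1.79-fold (-0.84 ± 0.07, limma adjusted p = 9.67e-08), and PA added to IMQ lowered it a further 3.12-fold (-1.64 ± 0.07, limma adjusted p = 2.07e-10). The interaction was -1.41 ± 0.10 (limma adjusted p = 1.58e-07). This fall and the rise of Clec7a, which closes the same run of genes on chromosome 6, were the changes of largest size among the members when PA was added to IMQ.

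The DCIR group is encoded by Clec4a1 to Clec4a4, of which Clec4a2 is the inhibitory receptor DCIR1 and Clec4a1 and Clec4a3 are its relatives DCIR4 and DCIR3. Clec4a2 read 7.53, 7.51, 7.80 and 7.71 in mock, 7.91, 7.78, 7.86 and 7.89 in PA, 6.50, 6.24, 6.43 and 6.24 in IMQ and 6.61, 6.37, 6.41 and 6.29 in IMQ with PA. Arrays with IMQ lay below those without it, whether or not PA was present. It fell by 1.29 on the log2 scale with IMQ (-1.29 ± 0.08, limma adjusted p = 3.33e-09), and PA added to IMQ gave 0.07 ± 0.08 (limma adjusted p = 0.634, interval -0.11 to 0.25).

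Clec4a1 moved the other way, although it lies in the same run of genes. It read 7.39, 7.18, 7.45 and 7.07 in mock, 7.33, 7.24, 7.38 and 7.51 in PA, 9.21, 9.41, 9.39 and 9.32 in IMQ and 7.96, 8.12, 8.25 and 8.20 in IMQ with PA. The IMQ arrays were highest and the arrays with both agents stood between them and the arrays without IMQ. IMQ raised it by 2.06 ± 0.09 (limma adjusted p = 1.97e-11), and PA added to IMQ changed it by -1.20 ± 0.09 (limma adjusted p = 5.65e-08), with an interaction of -1.29 ± 0.13 (limma adjusted p = 3.05e-06).

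Clec4a3 read 8.89, 9.07, 9.07 and 9.01 in mock, 9.21, 9.08, 9.11 and 8.99 in PA, 8.75, 8.85, 8.82 and 8.76 in IMQ and 7.82, 8.11, 7.94 and 7.92 in IMQ with PA. The difference of IMQ from mock was small (-0.22 ± 0.07, limma adjusted p = 0.0168, and -0.21 with a limma adjusted p of 0.203 on the fewer arrays left without those high in Il6). Adding PA to IMQ gave -0.85 ± 0.07 (limma adjusted p = 9.36e-08), with an interaction of -0.93 ± 0.09 (limma adjusted p = 4.03e-06). The genes of this group are close relatives, and whether their probe sets read transcripts of each other was not tested.

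Clec1a encodes MelLec, a receptor for fungal melanin, and Clec1b encodes CLEC-2, the podoplanin receptor of platelets that some myeloid cells also carry. Clec1a read 6.01, 5.85, 5.77 and 5.96 in mock, 6.10, 5.89, 6.15 and 5.80 in PA, 4.31, 4.47, 4.71 and 4.48 in IMQ and 4.62, 4.30, 4.39 and 4.29 in IMQ with PA. The highest array with IMQ read 4.71 and the lowest without it 5.77, whether or not PA was present, and the change with IMQ was at least 2.66-fold lower (-1.41 ± 0.10, limma adjusted p = 8.93e-09), since the IMQ mean of 4.49 lay in the dim range. The difference on adding PA to IMQ was -0.09 ± 0.10, with both means in that range.

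Clec1b read 5.65, 5.84, 5.59 and 5.59 in mock, 5.66, 5.61, 5.76 and 5.77 in PA, 4.39, 3.37, 3.84 and 4.35 in IMQ and 5.03, 4.92, 4.97 and 5.29 in IMQ with PA. The IMQ arrays were lowest and spread over about 1 log2 unit (SD 0.48), and the arrays with both agents stood between them and the arrays without IMQ. The fall with IMQ was at least 3.20-fold (-1.68 ± 0.17, limma adjusted p = 6.57e-07, IMQ mean 3.99), and PA added to IMQ raised it by at least 1.06 ± 0.17 (limma adjusted p = 0.000226). Its interaction, 1.03 ± 0.24 (limma adjusted p = 0.00862), was not called without the arrays high in Il6 (1.02, limma adjusted p = 0.208) or without those low in Il6 (0.99, limma adjusted p = 0.0698). The difference of IMQ with PA from PA (-0.65 ± 0.17, limma adjusted p = 0.00641) was not called without the arrays high in Il6 (-0.58, limma adjusted p = 0.113). Among 5 platelet markers IMQ raised Gp6 (2.45), Pf4 (0.51) and Itga2b (0.32) and lowered Ppbp (-0.63). That is 80% of the list, where 52.1% of all genes above the dim level were called. The mean log2 level of the list was 6.12 to 6.20 on mock arrays, 6.24 to 6.39 with PA, 6.63 to 6.77 with IMQ and 6.20 to 6.39 with IMQ and PA, and its part in the Clec1b change was not tested.

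Several Clec2 genes encode ligands rather than sugar receptors. Among them, Clec2d (Clr-b) is bound by the inhibitory receptor NKR-P1B of natural killer cells, the product of Klrb1b. Clec2d read 10.71, 10.81, 10.73 and 10.82 in mock, 10.85, 10.81, 10.71 and 10.79 in PA, 11.05, 11.04, 10.99 and 10.95 in IMQ and 10.79, 10.87, 10.75 and 10.80 in IMQ with PA. It was highest on the IMQ arrays by a small margin (0.24 ± 0.05, limma adjusted p = 0.00069), and PA added to IMQ brought it down by a like amount (-0.20 ± 0.05, limma adjusted p = 0.00489). The call for IMQ was lost without the arrays high in Il6 (0.19, limma adjusted p = 0.111), and that of the interaction (-0.23 ± 0.07, limma adjusted p = 0.0336) was lost in repeated quantile normalization (limma adjusted p = 0.0509) and with array medians set equal (0.0625), and without the arrays high (-0.22, 0.272) or low (-0.20, 0.156) in Il6. Its partner gene Klrb1b rose with IMQ (1.96 ± 0.13, limma adjusted p = 5.00e-09) and fell when PA was added to IMQ (-0.52 ± 0.13, limma adjusted p = 0.00953).

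Clec2i (Clr-g) and Clec2l, a relative best known from brain, were called only in comparisons that involve the arrays with both agents. Clec2l read 5.25, 5.30, 5.64 and 5.06 in mock, 4.91, 5.17, 5.06 and 5.50 in PA, 5.46, 5.22, 5.24 and 5.41 in IMQ and 6.26, 5.90, 6.18 and 6.04 in IMQ with PA. The arrays with both agents lay above all others, by 0.76 ± 0.13 relative to IMQ (limma adjusted p = 0.000452) and by 0.94 ± 0.13 relative to PA (limma adjusted p = 2.28e-05), with an interaction of 0.92 ± 0.19 (limma adjusted p = 0.00309). Clec2i read 6.83, 6.49, 6.81 and 6.50 in mock, 6.48, 6.66, 6.40 and 6.41 in PA, 6.46, 6.56, 6.65 and 6.56 in IMQ and 6.69, 7.13, 7.05 and 6.73 in IMQ with PA. Clec2i differed by 0.34 ± 0.11 between IMQ with PA and IMQ (limma adjusted p = 0.0314), a call lost in repeated quantile normalization (limma adjusted p = 0.0747) and without IMQ replicate 1 (0.0856), IMQ replicate 2 (0.0619), IMQ replicate 4 (0.0628), IMQ with PA replicate 2 (0.105) or IMQ with PA replicate 3 (0.097). Relative to PA it was higher by 0.42 ± 0.11 (limma adjusted p = 0.00536), and without the arrays high in Il6 by 0.34 (limma adjusted p = 0.0762). Its interaction was 0.52 ± 0.15 (limma adjusted p = 0.0329), and 0.28 without the arrays high in Il6 (limma adjusted p = 0.543).

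The remaining genes above the dim level showed little movement. Clec16a, which encodes an endosomal and autophagy protein that is not a sugar receptor, fell by 0.17 on the log2 scale with IMQ (-0.17 ± 0.06, limma adjusted p = 0.0251), a call lost in repeated quantile normalization (limma adjusted p = 0.107) and without mock replicate 2 (0.0723) or 3 (0.0554) or IMQ replicate 1 (0.0612) or 2 (0.0674). Without the arrays high in Il6 the Clec16a changes were -0.10 for IMQ (limma adjusted p = 0.513) and, for IMQ with PA relative to PA, -0.16 (limma adjusted p = 0.133) in place of -0.22 ± 0.06. Clec11a (a bone growth factor), Clec18a (a secreted protein), Clec3b (the plasma protein tetranectin), Clec4f (the Kupffer cell receptor) and Clec2m were not called in any of the 5 comparisons, and their group means lay between 4.90 and 5.56; Clec18a was called lower in IMQ with PA than in PA without the arrays high in Il6 (-0.35, limma adjusted p = 0.0104). In the dim range, Clec10a (MGL1, a receptor for galactose-type sugars) went from 4.18 in mock to 3.66 with IMQ (limma adjusted p = 0.00347), Clec4b2 from 3.61 to 3.25 (0.0176) and Clec4g (LSECtin of liver endothelium) from 3.71 to 4.10 (0.00472). The interaction of Clec4g was also called (-0.58 ± 0.14, limma adjusted p = 0.0103). Clec10a was also lower in IMQ with PA than in PA (-0.42 ± 0.12, limma adjusted p = 0.0137). These values are of the height seen for silent genes. The dim genes Clec12b, Clec14a (of endothelium), Clec2e, Clec2g, Clec2h, Clec3a (of cartilage) and Clec4a4 were called in 0 comparisons.

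The signalling genes that serve these receptors were read from a list of 31 genes, of which 28 were measured and all were above the dim level. IMQ raised 13 and lowered 12 of them (median 0.09), which is 89.3%, where 52.1% of all genes above that level were called. Of the partner chains, Fcer1g rose by 0.36 ± 0.04 (limma adjusted p = 6.42e-07) and Tyrobp fell (-0.79 ± 0.05, limma adjusted p = 2.99e-09). The kinase Syk rose (0.59 ± 0.04), as did Malt1 (1.11 ± 0.05) and Bcl10 (0.25 ± 0.04) of the complex that Card9 assembles, while Card9 fell (-0.34 ± 0.05). Plcg2, the phospholipase below Syk, fell (-0.67 ± 0.05), and so did the phosphatase Inpp5d or SHIP-1 (-0.81 ± 0.04).

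PA added to IMQ lowered 16 of the 28 signalling genes and raised 2 (median -0.14), which is 64.3%, where 32.2% of all genes above the dim level were called. The Src-family kinase Fgr fell most (-1.60 ± 0.06, limma adjusted p = 1.47e-11), followed by the exchange factor Vav1 (-0.66 ± 0.04), the adaptor Blnk (-0.57 ± 0.04) and Ptpn6 (-0.54 ± 0.04). The falls of Fcer1g (-0.13 ± 0.04), Syk (-0.13 ± 0.04), Tyrobp (-0.23 ± 0.05) and Card9 (-0.28 ± 0.05) were smaller, and Vav3 (1.00 ± 0.06) and Fyn (0.48 ± 0.07) rose. PA alone raised 1, Vav3 (0.45 ± 0.06, limma adjusted p = 0.0012), which is 3.57%, where 2.12% of all genes above the dim level were called. Relative to PA, IMQ with PA raised 9 and lowered 16, and the interaction was above 0 for 2 and below 0 for 14 (57.1%), where 53.2% and 20.5% of genes above the dim level were called. Over all genes the median changes were 0.01 for IMQ and -0.02 for PA added to IMQ.

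**Figure D4:**
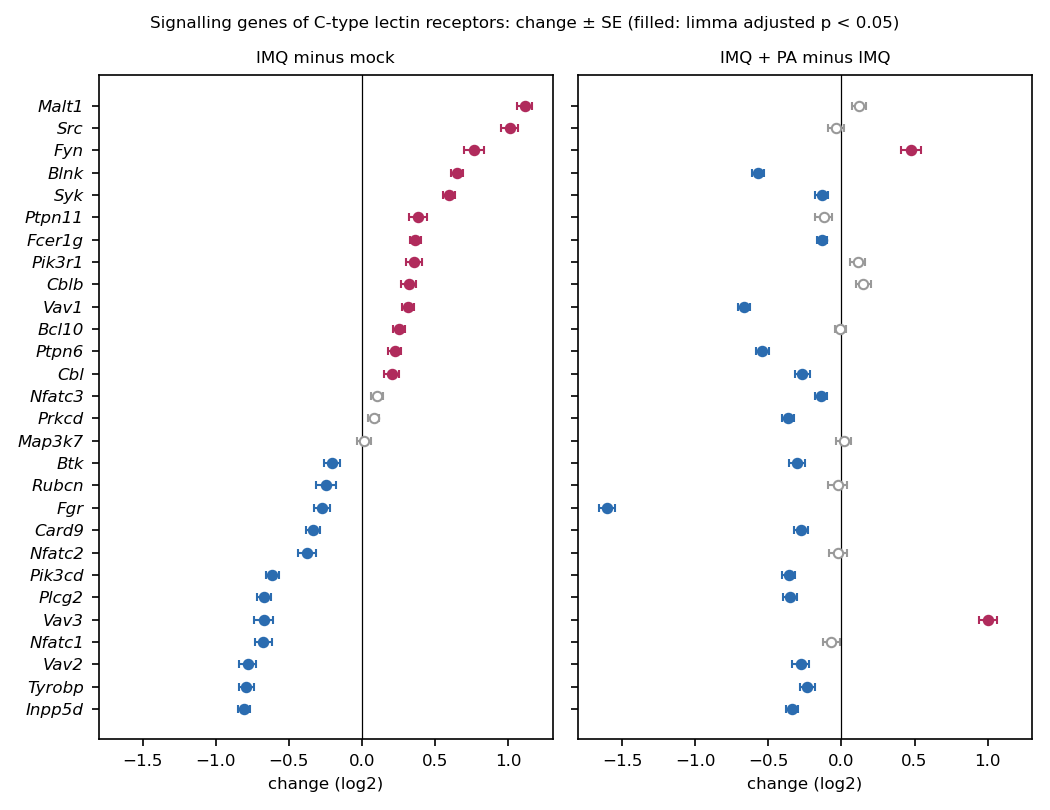
Changes (log2, with the SE of the fit) of 28 signalling genes with IMQ (left) and when PA was added to IMQ (right), sorted by the change with IMQ; filled points mark a limma adjusted p under 0.05. On the left 13 points are called above 0 and 12 below, and on the right 2 above and 16 below, with Fgr at -1.60.

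C-type lectins with other symbols were listed as 48 genes, of which 44 were measured and 22 were dim. IMQ raised 8 and lowered 9 of them, which is 38.6%, near the 34.8% called over all genes. The mannose receptor Mrc1 (-3.62 ± 0.06), Cd93 (-3.52 ± 0.06) and the scavenger-type lectin Colec12 (-2.58 ± 0.06) fell, and the activation marker Cd69 (3.28 ± 0.14) and Olr1, the oxidised lipoprotein receptor LOX-1 (1.28 ± 0.05), rose. By group means, Klra2 also went from 6.74 in mock to 9.72 with IMQ, and Klra17 from 8.38 to 4.96. PA added to IMQ raised 7 and lowered 8, with Cd93 (1.78 ± 0.06), Thbd (1.70 ± 0.09), Olr1 (1.22 ± 0.05) and Mrc1 (1.05 ± 0.06) higher and Klra2 lower (-2.12 ± 0.10). That is 34.1% of the list, against 21.1% of all genes. The IMQ with PA mean of Klra2 (7.60) still lay above its mock mean. As for Clec7a and Clec1b, the IMQ with PA means of Mrc1 (7.62) and Cd93 (8.12) lay between their IMQ means (6.56 and 6.34) and mock means (10.2 and 9.87), while that of Olr1 (10.3) lay above both its IMQ mean (9.11) and its mock mean (7.83). PA alone raised 2, Cd302 (0.29 ± 0.04) and Olr1 (0.21 ± 0.05), which is 4.55% of the list against 1.49% of all genes. Relative to PA, IMQ with PA raised 7 and lowered 10, and 11 interactions were called, which are 38.6% and 25% of the list against 35.3% and 13.6% of all genes.

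Markers of the cell types that carry Clec genes moved with the same comparisons, in which 52.1% (IMQ) and 32.2% (PA added to IMQ) of all genes above the dim level were called. Of 12 macrophage and monocyte markers IMQ raised 5 and lowered 7, with Marco (3.04) and Adgre1 (1.55) higher and Ccr2 (-4.56) and Mertk (-2.08) lower. The fall of Ccr2 is a lower bound, because its IMQ mean of 4.73 lay below the dim level. Cd14 went from a mean of 10.5 in mock to 12.3 with IMQ. The mean log2 level of the list was 9.88 to 9.98 on mock arrays and 9.86 to 9.97 on IMQ arrays. Adding PA to IMQ lowered 8 and raised 2 of the 12 markers, with list means of 9.62 to 9.67. Of 13 dendritic cell markers IMQ raised 7 and lowered 3, Itgax among the latter (-1.71), with list means of 8.02 to 8.10 in mock, 7.97 to 7.98 in PA, 8.14 to 8.18 in IMQ and 8.18 to 8.23 in IMQ with PA. Of 13 neutrophil markers 5 were dim, among them Ly6g and Mpo. Others stood well above the dim level, such as Mmp8 (12.3 in mock) and Csf3r (8.43 in mock). IMQ raised 3 and lowered 3 of the 13, which is 46.2%, against 34.8% of all genes. Adding PA to IMQ raised 2 and lowered 2, which is 30.8%, against 21.1% of all genes. The neutrophil list means were 5.67 to 5.72 in mock and 5.48 to 5.54 in PA. They were 5.58 to 5.63 in IMQ and 5.31 to 5.41 in IMQ with PA. The part of these markers in the changes of the Clec genes was not tested.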

How the data were processed

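Per the labels' protocols, 200 ng of total RNA from each of 16 samples went onto 1-colour Affymetrix arrays. The authors deposited log2 values of 41345 probe sets. RMA and affy are named in the submitters' processing notes, with no versions. RMA corrects background, normalises by quantiles and summarises probes, which can compress differences at the ends of the scale. No genome build is given in the sources used here. Arrays have no read depth, so their number limits the precision.

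Of the probe sets, 23521 had 1 symbol in the platform annotation, 1814 had several and 16010 none listed, and the last 2 kinds were left out. The probe set with the highest mean stood for each of 1082 genes with more than 1, which left 22180 genes. Each Clec gene had a single probe set that carried its symbol alone. The probe set shared by Clec9a and Clec1b was among those left out, and its values were not set beside those of Clec1b. All 31 genes matched RefSeq (GRCm38.p6) by gene number under the same symbol, and that annotation was used for names, gene order and promoters.

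A model of 4 group means on the 16 arrays was run in limma 3.58.1 under R 4.3.3 (lmFit and eBayes, 12 residual and 2.96 prior degrees of freedom), two-sided, with Benjamini-Hochberg adjustment over all genes tested in each of 5 comparisons. Each change is a log2 difference, and SE is that of the model. The procedure was tested on simulated data (22180 genes). For PA minus mock, 76.1%, 98.5% and 100% of changes of 0.5, 1 and 2 were recovered, and for the interaction 44.8%, 88.1% and 98.5%. The simulation changed only a small share of genes and drew independent errors with the same SD in every group. In the data 13.6% of genes were called for the interaction, and the arrays without IMQ differed in Il6. These recovery rates therefore need not hold for the data.

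The rule for named genes allowed the 21 Clec genes above the dim level, the dim ones by name and range, and up to 4 called genes of each list by size in each direction. Signalling partners, Klrb1b and marker genes named beyond that were chosen after their values were seen. Members and lists were chosen with earlier results of these data known. Alternatives covered normalization, centring, moderation, arrays in the fit, dim genes, probe sets, a replicate block, single replicates and the Il6 state of arrays.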

Additional observations from a re-analysis of the deposited data

Results flagged for a closer look

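Among the 21 genes above the dim level, the PA change differed between cells with and without IMQ for 11 by the interaction test in limma (adjusted p under 0.05), where 20.5% of all genes above that level were called. The interaction was above 0 for Clec7a (1.46), Clec1b (1.03), Clec2l (0.92), Clec2i (0.52), Clec4n (0.33) and Clec4d (0.28), and below 0 for Clec12a (-1.41), Clec4a1 (-1.29), Clec5a (-1.02), Clec4a3 (-0.93) and Clec2d (-0.23). The Clec2i call was lost without mock replicate 1 or 3, PA replicate 1, 3 or 4, IMQ replicate 1, 2 or 4, or IMQ with PA replicate 2 or 3 (0.44 to 0.52, limma adjusted p = 0.0537 to 0.0701). The Clec2d call was lost without mock replicate 1 or 3, PA replicate 1, 2 or 4, IMQ replicate 1 or 2, or IMQ with PA replicate 1, 3 or 4 (-0.23 to -0.21, limma adjusted p = 0.0517 to 0.073).

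In 84 groups of 4 arrays, 2 held an array far from the other 3 by Dixon's limit, where chance flags about 1 group in 20. Clec4b1 read 2.76 in IMQ replicate 3 and 1.85 to 1.98 in the other IMQ arrays, all below the dim level. Clec7a read 12.06 in mock replicate 1, against 12.002 to 12.008 in the others.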

How the results depend on the processing

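Among all 31 Clec genes, the number called moved by at most 1.5 times under the alternatives run for IMQ (17), PA added to IMQ (11), IMQ with PA relative to PA (15) and the interaction (12). It was lowest without the arrays high in Il6 for IMQ (12) and the interaction (8). Without single arrays these ranged from 15 to 18, 10 to 12, 14 to 16 and 10 to 12. For PA alone 0 were called in all 8 such refits, with 3 under a variance trend, 1 without dim genes and 1 without arrays high in Il6. With the 99th percentile as the limit 16 genes were dim in place of 10. Among the 21 genes above the dim level 0 results reversed. Leaving out the arrays high in Il6, which leaves 1 mock and 2 PA arrays, ended 10 of the 50 calls among those 21 genes and added 3. The replicate block ended 0 calls and added 1, Clec18a for IMQ with PA relative to PA (-0.21, limma adjusted p = 0.0399). Deviations of same-numbered arrays correlated at -0.118 to 0.173 over 24 pairs, and those of differently numbered arrays at -0.179 to 0.101. Among arrays of other groups, 7 of 16 arrays correlated best with an array of their own number. These values do not decide whether the numbers pair the arrays. The labels state no pairing, so none was used in the main fit. Signal near the dim level and near the top of the scale limits the size of changes that can be read.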
